A study of Mus musculus with 6 samples.

Results

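The genes described here encode the proteins of the mitochondrial ribosome, measured in mouse embryonic stem cells that carried an shRNA against KIAA1718 or one against luciferase. The members were the probe sets whose single gene symbol in the array's annotation starts with Mrpl or Mrps followed by a number, with each gene represented by its probe set of the highest mean signal over all 6 arrays. This gave 76 genes of 18193 with a probe set of 1 symbol on the array, 47 of the large subunit (Mrpl) and 29 of the small subunit (Mrps), covered by 156 probe sets. Subunits were assigned by symbol alone. The rule itself used no measured difference, but earlier results of these data were known when it was set. The array had 4 further probe sets whose annotation pairs such a symbol with a second gene, and 2 genes found on those alone, Mrpl30 and Mrpl53, are therefore not among the members.

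Mitochondria keep their own ribosomes, which translate the few messenger RNAs of the mitochondrial genome into core subunits of the respiratory chain and of ATP synthase. Their ribosomal RNA is transcribed inside the organelle, while every one of their proteins is encoded in the nucleus, made in the cytosol and imported. Some of these proteins descend from bacterial ribosomal proteins and others are specific to mitochondria. The large subunit joins amino acids and threads the growing chain through an exit tunnel towards the inner membrane, and the small subunit binds the messenger RNA and reads its codons.

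The cells were R1, a mouse embryonic stem cell line, transformed with a lentivirus that expressed the shRNA and then sorted for GFP. The control group was 3 arrays of cells with the luciferase shRNA (Luc shRNA), whose target is an insect enzyme gene, and the other group was 3 arrays of cells with KIAA1718 shRNA1. KIAA1718 is the protein of Kdm7a, a demethylase of histone H3. Each group carried a single shRNA, so what it does to KIAA1718 and what it may do to other genes cannot be told apart. The labels do not say whether replicates are separate cultures, so the p-values reflect sample-to-sample spread that may be purely technical.

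Signals in the text are quantile-normalized between arrays and returned to the linear scale, because the deposited signals had medians from 9.58 to 13.3 across arrays; log2 differences are KIAA1718 shRNA1 minus luciferase shRNA on the log2(signal + 16) scale. Signals of different probe sets are not comparable as RNA levels. Adjusted p-values are those of limma, with Benjamini-Hochberg adjustment over the 27022 probe sets tested and a threshold of 0.05. The brightest Kdm7a probe set had a signal of 38.0 ± 1.11 in control cells and 31.7 ± 9.64 in KIAA1718 shRNA cells (SD, n = 3). Its log2 difference was -0.20 (95% interval from -0.54 to 0.13, limma adjusted p = 0.533), so the target gives no check of the labels. All 12 embryonic stem cell markers were measured, with a summed signal of 14638 to 14871 on the control arrays and 12755 to 13506 on the KIAA1718 shRNA arrays. Of these markers 3 fell, Esrrb, Fgf4 and Utf1, which is 25% against 4.84% of all genes tested, and 9 did not pass. In all, 11 of the 12 lay below 0.

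As a group, the mitochondrial ribosomal protein genes differed little between the cells. All 76 had enough signal to be tested, 39 lay above 0 and 37 below, and a single one passed the threshold. That gene was Mrpl52 of the large subunit, which fell in cells with the KIAA1718 shRNA. The median log2 difference was 0.011 over the 47 large subunit genes and -0.036 over the 29 small subunit genes, against 0.0011 over the 12740 genes tested. The share of members changed was 1.32%, against 4.84% of all genes tested, the background of this comparison, of which 2.17% fell and 2.67% rose.

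The members also lay closer to 0 than genes at large. Their median absolute log2 difference was 0.079, against 0.148 for all genes tested. All 76 differed by less than 0.5, and for 66 of them the 95% interval lay between -0.5 and 0.5. The deposited mean signal of the members ran from 101 to 1285, far above the limit of 6.65 for a probe set to be tested, and bright probe sets vary less: the median standard error was 0.107 for members and 0.133 for all genes tested. Among the 5373 other genes at least as bright as the dimmest member, a comparison added after the values were seen, 6.81% changed. For 34.2% of these genes the groups did not overlap. Their median absolute difference was 0.146 and their median standard error 0.113. Groups did not overlap for 12 of the 76 members, 4 of them higher and 8 lower, which is 15.8% against a background of 27.9%. At an unadjusted p under 0.05 there were 9 members, 6 lower and 3 higher, which is 11.8% against 22% of all genes. A gene that missed the threshold is not shown to be equal in both groups. No set test was made, so these shares describe the list and do not set it apart.

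**Figure D1:**
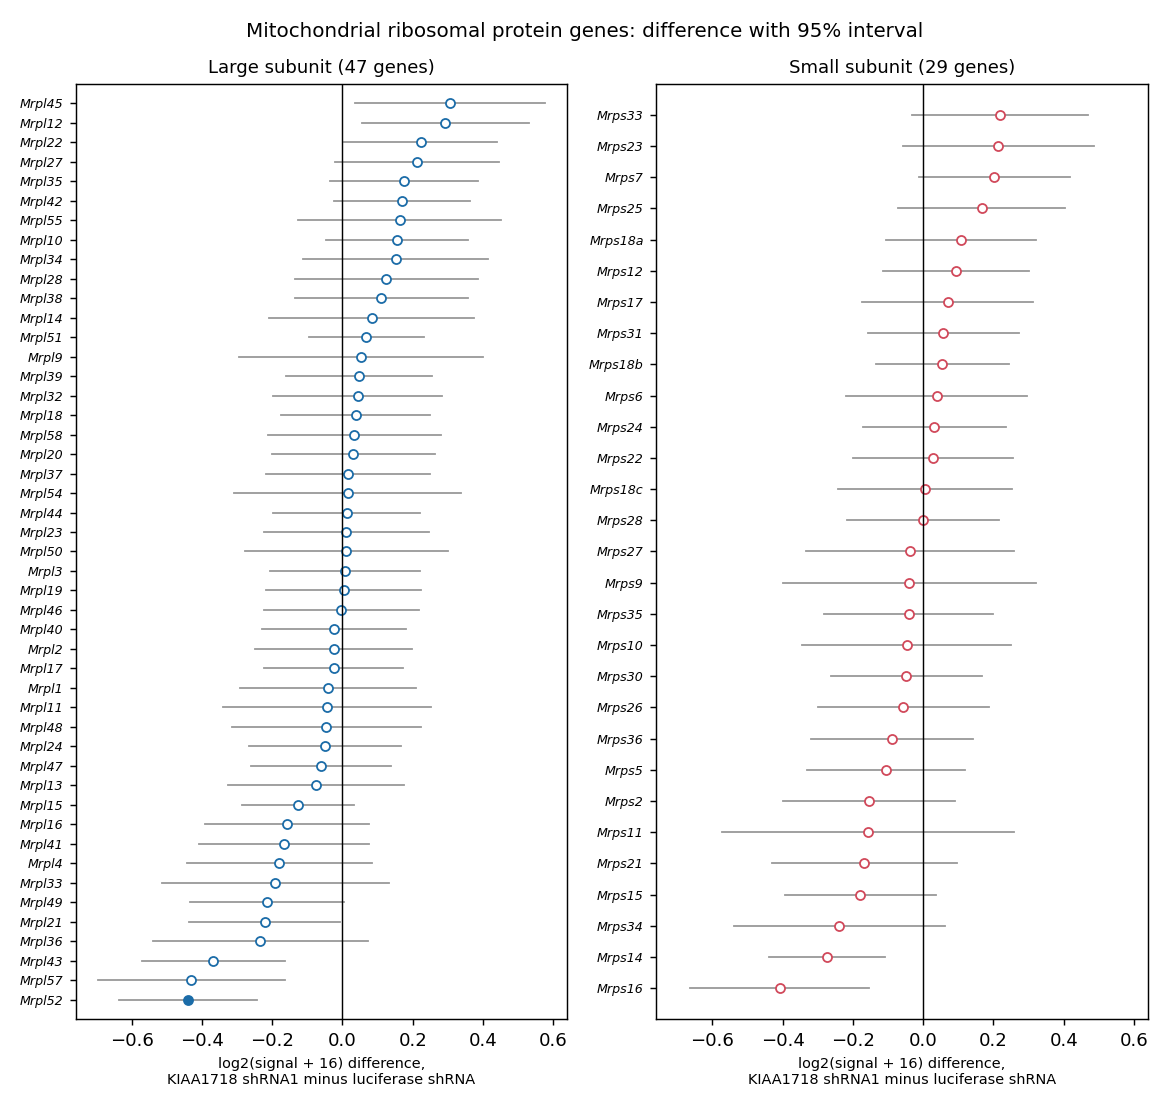
Difference in log2(signal + 16), KIAA1718 shRNA1 minus luciferase shRNA, on the x axis for each of 47 large subunit genes (blue) and 29 small subunit genes (red), ordered by size; lines are 95% intervals from limma over 3 against 3 arrays. The filled point is Mrpl52, the gene past the threshold, and the members range from -0.44 to 0.31.

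Among large subunit genes, Mrpl52 encodes a mitochondria-specific protein of the central protuberance, the crown of the subunit that faces the small subunit. Its normalized signal was 723.6, 755.5 and 731.2 on control replicates 1, 2 and 3 and 538.8, 594.1 and 490.0 on KIAA1718 shRNA replicates 1, 2 and 3. All 3 KIAA1718 shRNA arrays lay below all 3 controls. The log2 difference was -0.44 ± 0.09 (SE), with a 95% interval of -0.64 to -0.24 and a limma adjusted p of 0.0230. The call was lost whenever an array other than KIAA1718 shRNA replicate 2 was left out: without 1 of these 5 arrays the adjusted p was 0.0535 to 0.0994, and the difference -0.45 to -0.37, and without KIAA1718 shRNA replicate 2 they were 0.02 and -0.50. It was also lost without normalization (-0.31, adjusted p = 0.334), without the filter on dim probe sets (adjusted p = 0.0647) and without the intensity trend (adjusted p = 0.0810).

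All but the dimmest of its further probe sets gave Mrpl52 larger differences. It has 4, all tested and all below 0, and 3 of them fell. Over all probe sets tested 3.68% changed, 1.74% lower and 1.95% higher. The second is of a kind that can match transcripts of more than 1 gene (_x_at). It had a signal of 446.4, 502.3 and 461.2 in controls and 296.9, 340.9 and 294.9 with the KIAA1718 shRNA, a log2 difference of -0.57 ± 0.10 (SE, limma adjusted p = 0.0108). The next went from 411 ± 34.9 to 268 ± 31.1 (SD, n = 3), a log2 difference of -0.59 (limma adjusted p = 0.0160), and the dimmest, at a mean deposited signal of 7.79, differed by -0.30 (limma adjusted p = 0.257). Probe sets of 1 gene share its transcripts and its arrays, so they are not independent. Of 14 alternatives run on single probe sets, 11 kept the call of the second probe set and 8 that of the next.

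The 4 other genes at the low end of the large subunit did not pass. Mrpl57, for a small mitochondria-specific protein, had signals of 339.0, 430.7 and 357.3 in controls and 248.5, 312.5 and 262.4 with the KIAA1718 shRNA, a log2 difference of -0.43 ± 0.12 (SE, limma adjusted p = 0.0769). Mrpl43, also mitochondria-specific, had 419.6, 441.5 and 386.3 against 321.0, 316.1 and 317.8, a log2 difference of -0.37 ± 0.09 (SE, limma adjusted p = 0.0539). Neither gene's groups overlapped, and both passed when the replicate number was a block (adjusted p = 0.0234 for Mrpl57 and 0.0431 for Mrpl43), a fit under which 7.85% of all genes changed and 3.78% fell. Mrpl43 also passed with a stricter filter (adjusted p = 0.0457) and where every gene was the mean of its probe sets (adjusted p = 0.0225); it has a single probe set, so its own difference was the same there. Mrpl36, for a short protein with a bacterial counterpart, differed by -0.23 (limma adjusted p = 0.405), and Mrpl21 by -0.22 (limma adjusted p = 0.250). The second tested probe set of Mrpl57, at a mean deposited signal of 12.7, differed by 0.0074.

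The stalk is the flexible arm that recruits translation factors. Of its 4 genes, base included, 3 lay above 0, of which Mrpl54 turned to -0.036 with arrays scaled to a common median; of all genes tested 6398 of 12740 lay above 0. Mrpl12, whose protein forms the stalk's mobile part and also binds the mitochondrial RNA polymerase, had signals of 561.1, 597.3 and 610.3 in controls and 647.8, 865.8 and 680.8 with the KIAA1718 shRNA. The groups did not overlap, and KIAA1718 shRNA replicate 2 was the highest. The log2 difference was 0.29 ± 0.11 (SE, limma adjusted p = 0.168). Of the other genes of the stalk and its base, Mrpl10 differed by 0.16, Mrpl54 by 0.015 and Mrpl11 by -0.043. None of these 4 passed in limma, and 1, Mrpl12, had an unadjusted p under 0.05, which is 25% against 22% of all genes.

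At the rim of the exit tunnel none of 8 genes passed in limma, and the median was 0.012. Of the 8, 2 had an unadjusted p under 0.05, which is 25% against 22% of all genes. Mrpl45, whose protein ties the ribosome to the inner membrane, had signals of 549.7, 388.7 and 509.6 in controls and 639.3, 549.7 and 597.7 with the KIAA1718 shRNA, a log2 difference of 0.31 ± 0.12 (SE, limma adjusted p = 0.205). This was the highest of all members, and its groups met at 549.7. Mrpl22, for a tunnel protein with a bacterial counterpart, differed by 0.22 (limma adjusted p = 0.256), from 665 ± 81.2 to 776 ± 56.0 (SD, n = 3). Mrpl39, on the same rim, differed by 0.048 (limma adjusted p = 0.839). In the central protuberance 1 of 7 genes changed, Mrpl52, which is 14.3% against 4.84% of all genes. The median there was -0.0027, with Mrpl27, which reaches towards the catalytic centre, at 0.21 (limma adjusted p = 0.316).

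Mrpl15, a large subunit gene with a bacterial counterpart, has the most probe sets of any member, 8, and they differ in size of change. Its brightest had signals of 1301, 1453 and 1269 in controls and 1231, 1259 and 1185 with the KIAA1718 shRNA, a log2 difference of -0.13 (limma adjusted p = 0.387). The other 7 lay between -0.45 and -0.20, all below 0. The fifth brightest, like the brightest, is an _x_at probe set, which can match transcripts of more than 1 gene. It passed, at 400 ± 14.7 in controls and 290 ± 9.09 with the KIAA1718 shRNA (SD, n = 3), a log2 difference of -0.45 ± 0.09 (SE, limma adjusted p = 0.0239), and kept its call in 7 of 14 alternatives and in 1 of 6 that left out an array. As the mean of its probe sets Mrpl15 differed by -0.30 and passed (limma adjusted p = 0.0452).

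**Figure D2:**
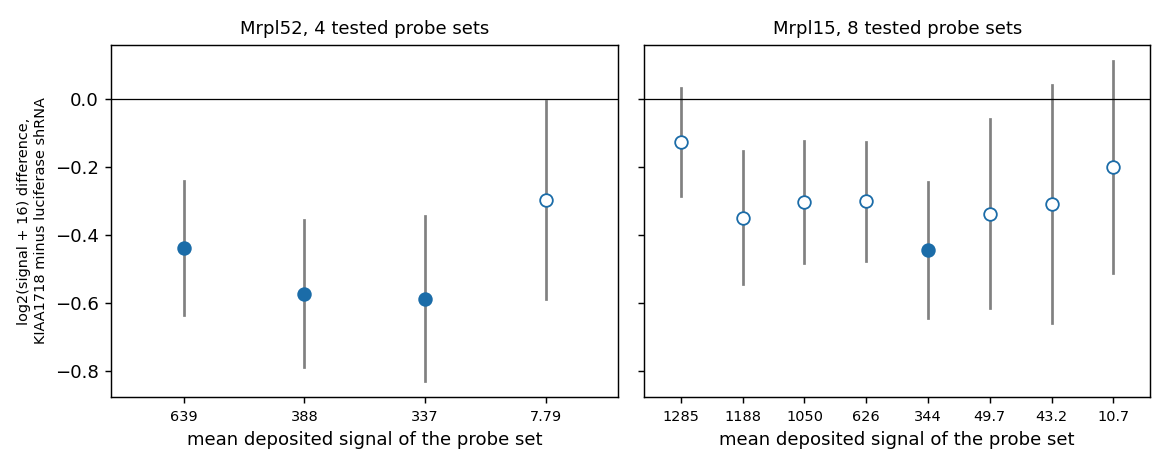
Difference in log2(signal + 16), KIAA1718 shRNA1 minus luciferase shRNA, on the y axis for each tested probe set of Mrpl52 (4) and Mrpl15 (8), ordered on the x axis by mean deposited signal; lines are 95% intervals and filled points passed the threshold. All 12 lie below 0, and the brightest Mrpl15 probe set, at -0.13, lies nearest to it.

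By origin, large subunit genes with a bacterial counterpart had a median of 0.0051 over 28. Of these 0 changed in limma, and 3 had an unadjusted p under 0.05 (10.7%, against 22% of all genes). Mitochondria-specific genes had a median of 0.011 over 18 and a range of -0.44 to 0.31. Of the 18, 1 changed (5.56%, against 4.84% of all genes), and 4 had an unadjusted p under 0.05 (22.2%). Mrpl58, a release factor relative that rescues stalled ribosomes, belonged to neither list and differed by 0.034. Mrpl35, the fifth highest of the subunit, differed by 0.17 (limma adjusted p = 0.363) and Mrpl51, among the brightest probe sets, by 0.069 (limma adjusted p = 0.681). The dimmest probe sets were those of Mrpl54, at 99.1 ± 16.4 and 100.3 ± 17.1, and Mrpl14, at 107.7 ± 10.6 and 115.5 ± 17.6 (controls and KIAA1718 shRNA, SD, n = 3), and Mrpl14 differed by 0.083 (limma adjusted p = 0.795).

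In the small subunit no gene passed in limma, 2 of 29 had an unadjusted p under 0.05, both lower, which is 6.9% against 22% of all genes, and groups did not overlap for 3, which is 10.3% against 27.9%. Mrps16, a protein of the subunit's body with a bacterial counterpart, had signals of 439.0, 474.8 and 392.8 in controls and 293.8, 376.8 and 305.1 with the KIAA1718 shRNA. All KIAA1718 shRNA arrays lay below the controls. Its log2 difference was -0.41 ± 0.12 (SE, limma adjusted p = 0.0794), and it passed with the replicate number as a block (adjusted p = 0.0310), without KIAA1718 shRNA replicate 2 (adjusted p = 0.0444) and where every gene was the mean of its probe sets (adjusted p = 0.0459), although it has a single probe set and its own difference was the same there. Mrps14, a protein of the subunit's head, had 943.2, 899.8 and 901.7 against 727.3, 790.5 and 743.9, again without overlap, a log2 difference of -0.27 ± 0.08 (SE, limma adjusted p = 0.0704). Its 2 further probe sets, both dimmer, differed by -0.034 and -0.028.

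The next lowest small subunit genes overlapped between the groups. Mrps34, mitochondria-specific, had 575.5, 517.2 and 596.8 in controls and 403.2, 610.1 and 431.6 with the KIAA1718 shRNA, so replicate 2 lay above every control and the others below (log2 difference -0.24, limma adjusted p = 0.384). Mrps15 differed by -0.18 and Mrps21 by -0.17 (limma adjusted p of 0.362 and 0.502). At the other end stood Mrps33 at 0.22, Mrps23 at 0.21, Mrps7 at 0.20 and Mrps25 at 0.17, with limma adjusted p-values of 0.293 to 0.457. Of these, the groups of Mrps7, a protein of the head with a bacterial counterpart, did not overlap: 236.4, 248.2 and 234.3 in controls and 270.1, 292.9 and 271.9 with the KIAA1718 shRNA.

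Several small subunit symbols need a word on what their proteins are. Mrps18a, Mrps18b and Mrps18c encode paralogues of 1 bacterial protein and differed by 0.11, 0.054 and 0.0058 (limma adjusted p of 0.610, 0.794 and 0.988). Despite their symbols, the products of Mrps18a and of Mrps30 sit in the large subunit, and Mrps30 differed by -0.048 (limma adjusted p = 0.846). Mrps36, now also known as a part of the oxoglutarate dehydrogenase complex, differed by -0.089 (limma adjusted p = 0.713). By their symbols, Mrps18a, Mrps30 and Mrps36 were counted in the small subunit throughout. Mrps12, whose protein lines the decoding centre, differed by 0.093 with a 95% interval of -0.11 to 0.30 (limma adjusted p = 0.658). The dimmest probe sets, of Mrps27, a protein with RNA-binding repeats, and of Mrps11, differed by -0.036 and -0.16. Signals of Mrps11 were 94.3, 187.8 and 112.2 with the KIAA1718 shRNA, on either side of the controls at 135.5 to 150.4.

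**Figure D3:**
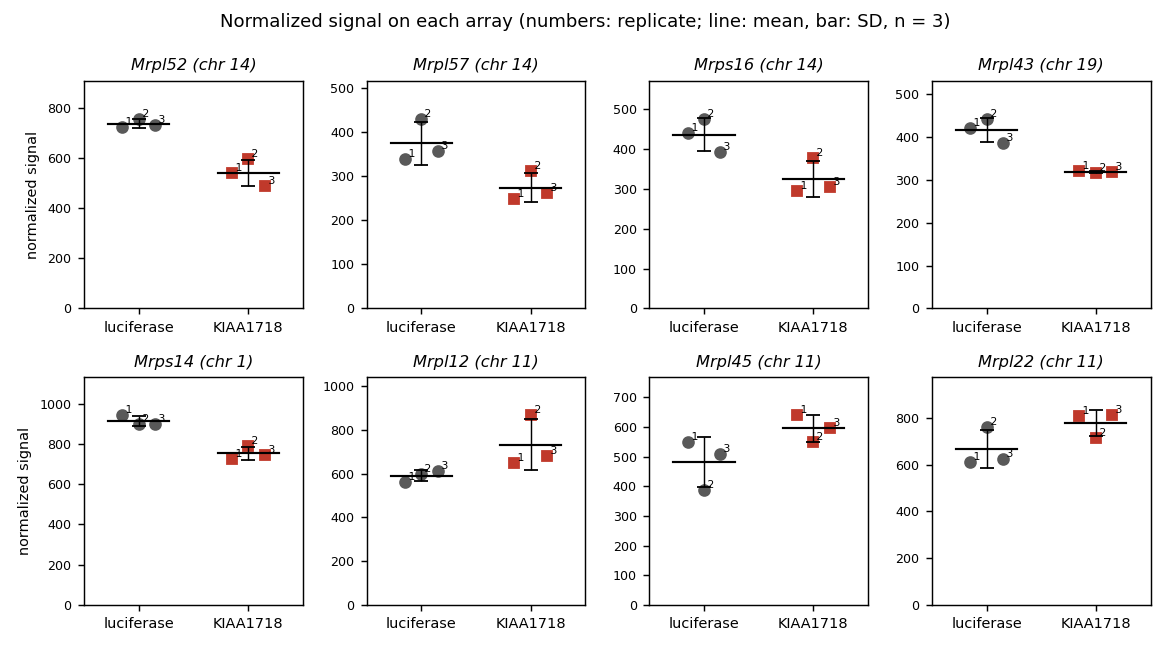
Normalized signal (y axis, linear, from 0) of 8 members on each array of the luciferase (circles) and KIAA1718 (squares) shRNA groups; numbers are replicates, horizontal lines means and bars SD (n = 3). Mrpl52, Mrpl57, Mrps16, Mrpl43 and Mrps14 have every KIAA1718 shRNA array below every control, Mrpl12 has every one above, and Mrpl45 and Mrpl22 overlap.

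One array lay apart for these genes. The mean level of the large subunit genes was 8.58 to 8.63 (log2) on the control arrays, 8.53 and 8.55 on KIAA1718 shRNA replicates 1 and 3 and 8.69 on replicate 2. For the small subunit the values were 8.38 to 8.48, then 8.34 and 8.33, and 8.56 on replicate 2. Without that array the medians were -0.049 for the large and -0.091 for the small subunit, against 0.0003 for all genes, and 2 members passed, both lower, Mrpl52 and Mrps16. Without 1 of the other arrays the medians ran from -0.0072 to 0.028 for the large and from -0.066 to 0.026 for the small subunit.

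The members were also described by chromosome, a feature their choice did not use. The 3 genes on chromosome 14, Mrpl52, Mrpl57 and Mrps16, were the 3 lowest of all 76. The 5 on chromosome 19, Mrpl43, Mrpl21, Mrpl49, Mrpl16 and Mrpl11, all lay below 0, at -0.37 to -0.043, with a median of -0.22. The 11 on chromosome 11, 8 of the large and 3 of the small subunit, all lay above 0, at 0.032 to 0.31, with a median of 0.20, and included Mrpl45, Mrpl12, Mrpl22, Mrpl27, Mrps23 and Mrps7. With the arrays scaled to a common median 9 of these 11 lay above 0, and all 11 above the median of all genes at -0.032. Leaving out luciferase replicate 1 gave 10 of 11, and leaving out KIAA1718 shRNA replicate 2 gave 9. On chromosome 19, 4 of 5 lay below 0 without normalization, without luciferase replicate 2, without KIAA1718 shRNA replicate 3 and without _x_at and _s_at probe sets. Of the 11, none passed in limma, 3 had an unadjusted p under 0.05 (22% of all genes did), and groups did not overlap for 3 (27.9% of all genes). Large differences also stood elsewhere, with Mrps34 on chromosome 17, Mrpl36 on chromosome 13 and Mrps33 on chromosome 6. Mrps14 lies on chromosome 1, whose other genes had a median of -0.13.

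Other genes of these chromosomes differed in the same directions. On chromosome 14 the other 425 genes tested had a median of -0.15, and 28.2% of them lay above 0. On chromosome 19 the other 453 had a median of -0.14 with 23.8% above 0, and on chromosome 11 the other 1040 had a median of 0.13 with 72% above 0. On chromosome 1 the other 717 genes had a median of -0.13, and its 4 members, Mrps14, Mrpl15, Mrps9 and Mrpl44, had a median of -0.083. No member lies on chromosome 12, where the median of 452 genes was -0.14. On the chromosomes with members other than 1, 11, 14 and 19, the medians of other genes lay between -0.0095 and 0.064. Of the other genes on chromosome 14, 8.47% fell. These chromosome shifts were known from an earlier account of the same arrays, and their part in the members' differences was not tested.

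Differences were also taken against a member's own chromosome. After subtracting the median of the other genes of the chromosome, the median of the 11 chromosome 11 members went from 0.20 to 0.068, and that of the 5 chromosome 19 members from -0.22 to -0.072. That of the 3 chromosome 14 members went from -0.43 to -0.28, with a range of -0.29 to -0.26 after subtraction. The standard deviation of the 76 differences went from 0.159 to 0.12. Across the 76 members the differences and their chromosomes' medians correlated at r = 0.68, and at 0.60 without chromosome 14. This is across genes that share the same 6 arrays, and is given without a p. Chromosomes 11 and 19 still count in the second value. Elsewhere the sides varied. On chromosome 13 other genes had a median of 0.064 and the 5 members -0.048. On chromosome 6 these were 0.015 and, for 6 members, 0.12. The 57 members on chromosomes other than 11, 14 and 19, the 4 of chromosome 1 included, had a median of -0.0007 and ran from -0.27 to 0.22.

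**Figure D4:**
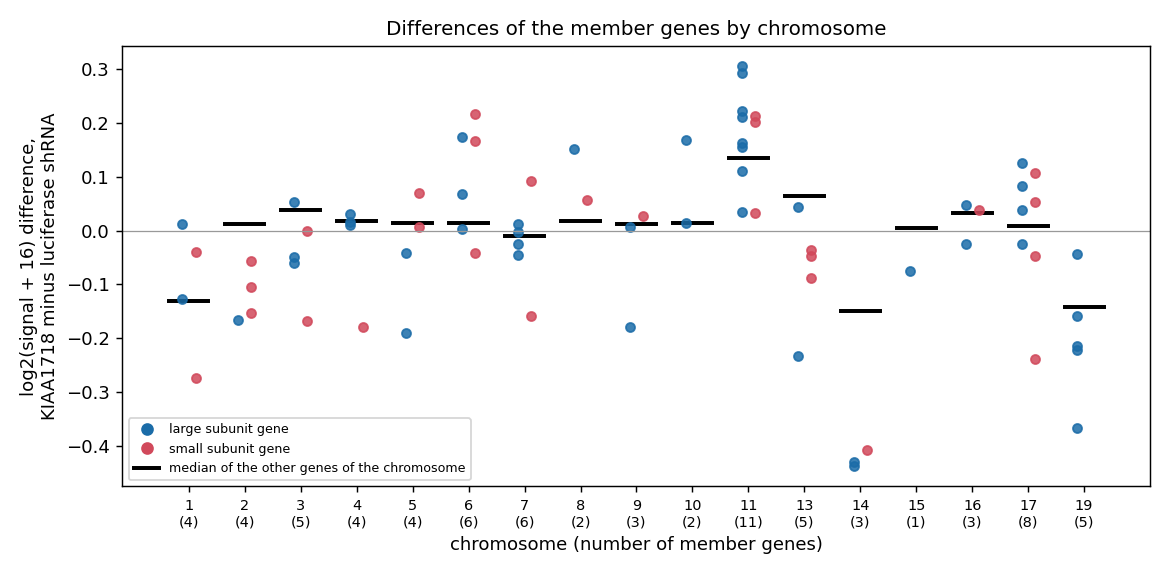
Difference in log2(signal + 16), KIAA1718 shRNA1 minus luciferase shRNA, of each large (blue) and small (red) subunit gene on the y axis, by chromosome on the x axis with the number of member genes in brackets; black lines are medians of the chromosome's other tested genes. All 11 members of chromosome 11 lie above 0, and all 3 of chromosome 14 and all 5 of chromosome 19 below; with arrays scaled to a common median this holds for 9 of 11 on chromosome 11, and without normalization for 4 of 5 on chromosome 19.

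The same values were also averaged per array. These means add no separate support to the directions by chromosome, since all members of each set already lay on the same side. The 3 chromosome 14 members had a mean level of 8.94, 9.11 and 8.92 (log2) on control replicates 1, 2 and 3 and of 8.48, 8.74 and 8.48 on KIAA1718 shRNA replicates 1, 2 and 3. The 5 of chromosome 19 had 8.81, 8.82 and 8.75 against 8.55, 8.70 and 8.53. The 11 of chromosome 11 had 8.52, 8.48 and 8.49 against 8.62, 8.76 and 8.64. In each of these 3 sets the groups did not overlap, while the other 57 members, at 8.53, 8.52 and 8.46 against 8.42, 8.61 and 8.43, had replicate 2 above and the other KIAA1718 shRNA arrays below the controls.

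Nearby genes were read by RefSeq order, with 5 tested genes on either side of a member. Around Mrpl52, which lies between Slc7a7 and Mmp14 among tested genes, 8 of 10 neighbours lay below 0 with a median of -0.22, and 1 fell. Around Mrps16 8 of 10 lay below 0 with a median of -0.17, and 2 fell, and around Mrpl57 6 of 10 with a median of -0.15. Around Mrpl22 all 10 lay above 0, with a median of 0.23, and 2 rose. Around Mrpl12 7 of 10 lay above 0 with a median of 0.024, and 1 rose, and around Mrpl45 5 of 10 with a median of 0.021. Over the 11 members of chromosome 11 the neighbours' medians ran from 0.016 (Mrpl27) to 0.24 (Mrpl55).

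The promoters of Mrpl52 and Mrpl57, the lowest members, and of Mrpl45 and Mrpl22, from the high end, are shown as examples from chromosomes 14 and 11, chosen after their values were seen. Each sequence is the 250 bases before the gene's RefSeq start (build GRCm38.p6), 5′ to 3′ on the gene's strand, which is + for all 4. Capitals mark matches on either strand to 1 of 4 patterns: GCGCA, any base, then GCGC, the core bound by NRF1, a regulator of nuclear genes for mitochondria; CCGGAAG, bound by ETS factors such as GABPA; AAGATGG, the core bound by YY1; and CACGTG, the E-box bound by Myc and its relatives.
Mrpl52, chr14:54426659-54426908: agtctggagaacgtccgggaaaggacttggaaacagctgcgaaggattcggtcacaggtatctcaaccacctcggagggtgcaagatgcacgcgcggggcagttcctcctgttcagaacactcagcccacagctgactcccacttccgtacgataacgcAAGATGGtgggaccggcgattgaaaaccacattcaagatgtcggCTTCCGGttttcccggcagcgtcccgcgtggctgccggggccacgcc
Mrpl57, chr14:57825989-57826238: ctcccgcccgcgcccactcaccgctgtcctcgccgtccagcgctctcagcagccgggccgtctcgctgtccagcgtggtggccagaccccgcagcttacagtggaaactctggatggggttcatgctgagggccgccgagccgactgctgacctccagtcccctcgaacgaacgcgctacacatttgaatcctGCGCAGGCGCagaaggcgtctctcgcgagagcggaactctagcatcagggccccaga
Mrpl45, chr11:97315466-97315715: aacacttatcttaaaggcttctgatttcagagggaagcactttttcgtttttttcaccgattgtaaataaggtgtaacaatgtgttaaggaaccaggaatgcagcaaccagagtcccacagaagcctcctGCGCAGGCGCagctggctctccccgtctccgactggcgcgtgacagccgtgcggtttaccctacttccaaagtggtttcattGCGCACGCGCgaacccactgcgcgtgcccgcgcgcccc
Mrpl22, chr11:58171414-58171663: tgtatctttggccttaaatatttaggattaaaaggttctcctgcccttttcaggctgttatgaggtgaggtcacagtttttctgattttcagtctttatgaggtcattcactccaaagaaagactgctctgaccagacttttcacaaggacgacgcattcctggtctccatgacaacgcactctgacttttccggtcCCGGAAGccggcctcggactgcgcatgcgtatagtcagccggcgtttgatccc
The Mrpl52 window holds 1 YY1 and 1 ETS pattern, that of Mrpl57 1 NRF1 pattern, that of Mrpl45 2 NRF1 patterns and that of Mrpl22 1 ETS pattern. Matches are a description of letters and not of binding.

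Promoter windows were found for 67 of the 76 members. The ETS pattern was in 17 of them (25.4%), against 10.1% of the windows of 17425 other protein-coding genes. The NRF1 pattern was in 9 (13.4%, against 5.81%), 8 of them in the large subunit, and the YY1 pattern in 6 (8.96%, against 4.76%). The E-box was in 5 (7.46%, against 7.61%). A gene with several windows was counted once if any held the pattern, 32 members held at least 1 pattern, and 35 held none of these letters in this window.

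Of 10 tested nuclear regulators of mitochondrial genes, 2 fell, 1 rose and 7 did not pass, so 30% changed against 4.84% of all genes. Their median was -0.15, with 8 below 0. Pprc1, a coactivator that works with NRF1, had 780 ± 60.7 in controls and 559 ± 35.3 with the KIAA1718 shRNA (SD, n = 3) and fell by 0.47 on the log2 scale (limma adjusted p = 0.0177). Myc fell by 0.46 and its relative Mycn rose by 0.45 (limma adjusted p of 0.0328 and 0.0141). Nrf1 differed by -0.15, Gabpa by 0.078 and Yy1 by -0.24, with limma adjusted p-values of 0.589, 0.718 and 0.155. Pprc1 lies on chromosome 19 and Myc on chromosome 15, and Mycn and Yy1 lie on chromosome 12.

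Other lists of mitochondrial translation are read against the 4.84% of all genes that changed and the 22% with an unadjusted p under 0.05. Of 5 tested proteins that belong to or bind the mitochondrial ribosome under other symbols, none passed in limma. An unadjusted p under 0.05 was found for 2 (40%), and all 5 lay below 0, with a median of -0.19. The furthest were Oxa1l, the inner membrane insertase that binds the large subunit, from 200.4 ± 12.4 to 143 ± 20.9 (SD, n = 3, log2 difference -0.45, limma adjusted p = 0.0727), and Chchd1, a small subunit protein, at -0.25 (limma adjusted p = 0.125); both are on chromosome 14. None of 10 translation factors passed in limma, and 1 had an unadjusted p under 0.05 (10%). The median was -0.020, with Mtfmt, which formylates the initiator tRNA, at 0.35 (limma adjusted p = 0.236) and the initiation factor Mtif2 at 0.19 (limma adjusted p = 0.418). Mtfmt lies on chromosome 9 and Mtif2 on chromosome 11.

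Of 21 tested genes that charge mitochondrial tRNAs, 1 fell (4.76%), 20 did not pass and the median was -0.086. The alanyl-tRNA synthetase gene Aars2 fell from 71.8 ± 8.30 to 43.7 ± 2.27 (SD, n = 3), a log2 difference of -0.55 (limma adjusted p = 0.0352), and Mars2, for methionine, differed by -0.45 (limma adjusted p = 0.125). Aars2 lies on chromosome 17 and Mars2 on chromosome 1. None of 22 assembly factors passed in limma, and the median was -0.0097. Of the 22, 2 had an unadjusted p under 0.05, both higher (9.09%, against 22% of all genes). The nearest were Mrm3, a methyltransferase of the large ribosomal RNA, at 0.37, and C1qbp, a matrix protein, at 0.13 (limma adjusted p of 0.151 and 0.230). Mrm3 and C1qbp lie on chromosome 11. Of 25 genes of mitochondrial transcription and RNA handling 1 rose and 1 fell (8% changed), with a median of -0.030. Grsf1, an RNA granule protein, rose from 635 ± 18.7 to 842 ± 56.2, and Prorp, the nuclease subunit that trims tRNAs at their leading end, fell from 246 ± 4.27 to 177.4 ± 11.02 (SD, n = 3). Their limma adjusted p-values were 0.0232 and 0.0405. Grsf1 lies on chromosome 5 and Prorp on chromosome 12.

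Markers of fibroblasts, cells on which embryonic stem cells are often grown, lay mostly below 0. The cells had been sorted for GFP, and whether fibroblasts remained among them was not tested. All 29 on the array were tested. Of these 2 fell, Pdgfra and Ccl2, which is 6.9% against 4.84% of all genes. Groups did not overlap for 4, which is 13.8% against 27.9% of all genes. The 29 markers had a median of -0.41, and 28 lay below 0. Their summed signal was 10440, 17827 and 17490 on control replicates 1, 2 and 3 and 9877, 12714 and 13132 on KIAA1718 shRNA replicates 1, 2 and 3, so the groups overlapped, while within each replicate number the KIAA1718 shRNA array was the lower, in 3 of 3. No marker was at 0 on any array, but no detection calls were used, 2 markers had a value below 10 on some array, and the lowest value was 3.22, for Pdgfra. In bulk RNA, fewer cells of a type and less RNA per cell cannot be told apart. The part of these cells in the members' differences was not tested.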

How the data were processed

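The 6 samples, 3 for each shRNA, were hybridized to Affymetrix Mouse Genome 430 2.0 arrays, with groups and replicate numbers taken from the sample titles. The table the authors deposited holds a linear signal intensity per probe set. The software was GCOS per the submitters' processing notes. How it summarised or scaled the probes, and its version, is not given in the sources used here. Scanner files and detection calls were not used here. The number of arrays limits the precision.

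The 64 control probe sets were removed, 16 was added, and log2 values were quantile-normalized, and the dimmest 40% of 45037 probe sets, by mean deposited signal, were then left out. Differences were fitted with limma 3.58.1 in R 4.3.3 (lmFit, eBayes with an intensity trend), two-sided; the fit was tested on simulated data. Fold changes on this scale understate those of dim probe sets. Of the 45037 probe sets, 34945 had 1 gene symbol, 932 several and 9160 none. Symbols of other genes were updated through Entrez numbers with the RefSeq table of GRCm38.p6, which held all 76 members and gave chromosomes and gene order; no build is named with the intensities.

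Of the members, 34 had 1 probe set. The other 42 had more, and 36 had a further tested one; of 69 such probe sets 45 lay on the side of the brightest, and 3 changed, all lower (3.68% of all probe sets changed). The brightest probe set was of a kind that can match transcripts of more than 1 gene (_s_at or _x_at) for 7 and 4 members.

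The 32 members named are those past the threshold, the 5 highest and 5 lowest differences, the 3 brightest and the 2 dimmest of each subunit, and Mrps18a, Mrps18b, Mrps18c, Mrps30, Mrps36 and Mrps12. Mrpl10, Mrpl11, Mrpl16, Mrpl44, Mrpl49, Mrpl55, Mrpl58 and Mrps9, outside this rule, and Nrf1, Gabpa and Yy1 were named after their values were seen. Other lists name up to 4 members that passed, or the 2 with the smallest p where fewer than 2 did. The members and lists were chosen with earlier results of these data known. Any 2 arrays differed at 45100 probe sets or more. Across the groups, the correlation of deviations from the group mean was 0.203 for the arrays with number 1, 0.125 for number 2 and 0.13 for number 3, and it ran from -0.15 to 0.0245 for other pairs. Each of the first 3 is over 0.1, so the numbers were treated as pairs in the fit with the replicate number as a block; no label says what a number marks. Alternatives were other scalings, pseudocounts and filters, this block, no trend, each array left out, and other ways to represent a gene.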

Additional observations from a re-analysis of the deposited data

How the results depend on the processing

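Of 511 values of the 32 named members under the alternatives, 475 kept their direction and side of the threshold, 8 lost the call, all for Mrpl52, 8 gained one and 20 turned sign. All 20 belonged to members that had not passed. Over all probe sets 995 changed, 526 of them higher; the count was 583 without normalization, 290 without the filter, 626 without the intensity trend, 1665 with the replicate number as a block, and 247 to 823 without 1 array. By gene the share of higher calls was 55.1% of 617, against 81.2% of 367 without normalization, where the median of all genes was 0.107, and 42.7% of 581 with arrays scaled to a common median. The count of changed large subunit genes, 1, was 0 without normalization, without the filter and without the trend, 2 with a stricter filter, 3 with the replicate block (Mrpl52, Mrpl57 and Mrpl43) and 3 with the mean of probe sets (Mrpl52, Mrpl43 and Mrpl15), and 0 to 1 without 1 array. For the small subunit, 0 became 1, Mrps16, with the replicate block and with the mean of probe sets, and ran from 0 to 1 without 1 array. Without normalization the medians were 0.147 for the large and 0.101 for the small subunit, against that 0.107. Subtracting the chromosome median, an alternative added after seeing the data, gave -0.0057 and -0.056. The block changed no other call of a named member.

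Signs turned without normalization for Mrps27 (0.091), Mrps30 (0.088) and Mrps36 (0.055), and with median scaling for Mrpl39 (-0.047), Mrpl51 (-0.013), Mrpl54 (-0.036), Mrps18b (-0.0055) and Mrps18c (-0.038). They turned with the mean of probe sets for Mrpl35 (-0.042) and Mrpl39 (-0.0046). Leaving out 1 array also turned signs, with values from -0.015 to 0.18 for Mrpl14, from -0.041 to 0.12 for Mrpl39, from -0.10 to 0.11 for Mrpl54, from -0.42 to 0.026 for Mrps11, from -0.094 to 0.11 for Mrps18c, from -0.17 to 0.046 for Mrps27 and from -0.099 to 0.015 for Mrps30. The cause was not tested.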
